A study of Mus musculus with 12 samples.

Results

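The genes described here are the mouse zinc finger genes whose symbol is Zfp followed by a digit. They were chosen by that name alone, and 28 of the 3326 genes in the deposited tables carry it. In the overexpression table they account for 5 of 648 transcripts, and in the one for knockdown for 24 of 3156. Zfp469 was the 1 gene in both tables. In RefSeq (GRCm38.p6) all 28 are protein-coding and lie on 12 chromosomes, with 5 each on chromosomes 7 and 8 and 4 on chromosome 5.

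RNA was sequenced from FGSCs (female germline stem cells, dividing germ cells kept in culture) of the mouse strain C57BL/6, in 4 groups of 3 libraries. The groups were usp7 overexpression with a control of its own and usp7 knockdown with another, and strain and cell type were the same in all 4. Usp7 is an enzyme that takes ubiquitin off proteins, and its own transcript was not among those analysed here, so the labels could not be checked against it. Vectors, age of the mice and the origin of replicates are unstated in the labels. The p-values therefore measure the spread between these libraries alone, which may be technical. Each table lists transcripts that passed the authors' own test on the same libraries, with an adjusted p under 0.05 and an absolute log2 fold of at least 0.59 in either table. A member is therefore present because it differed, and the tests below give size and error on that selection and no independent support for a difference. Zfp genes outside the tables were not analysed here.

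A zinc finger is a short protein fold held together by a zinc ion. Most proteins of this name carry a row of fingers of the Cys2His2 type, each reading a few bases of DNA, and many add a KRAB domain that recruits the co-repressor Trim28 and silences DNA, transposons included. A smaller group has fingers of the CCCH type, which bind RNA. In germ cells and early embryos such genes are best known through Zfp42, a marker of pluripotent cells also called Rex1.

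The listed normalized counts, which are reads divided by 1 scaling factor per library, summed to 131157 to 155114 in overexpression libraries and 128056 to 139647 in their controls, and to 5.38e6 to 5.52e6 in knockdown libraries and 3.01e6 to 3.22e6 in their controls. Of 17 markers of germ line and stem cells, 4 were listed for knockdown and 1 for overexpression, and defining markers such as Ddx4 and Dazl were not among the transcripts analysed here. The summed level of the 4 (Foxo3, Id4, Ifitm3 and Tex101) was 664 to 736 normalized counts in knockdown libraries and 1326 to 1347 in their controls. Foxo3 makes up most of this sum, at 555 ± 34.6 in knockdown libraries and 925 ± 35.9 in their controls (SD, n = 3). Id4 was at 21.1 ± 3.51 and 44.6 ± 5.22, and Tex101 at 123 ± 5.55 and 347 ± 43.6. Ifitm3 did not pass the low-value filter. The 1 in the overexpression table, Tex101, a surface protein of germ cells, was at 119 ± 24.9 normalized counts in overexpression libraries and 5.63 ± 2.65 in their controls (SD, n = 3). Of 9 fibroblast or feeder markers 3 were listed for knockdown, and they moved in opposite directions. S100a4, which makes up most of their sum (1635 to 2187 in knockdown libraries and 1237 to 2538 in their controls), was higher in knockdown libraries (log2 fold 0.87 ± 0.13 SE, but 0.06 and not past the threshold with column totals). Col1a1 (-2.40 ± 0.50) and Col1a2 (-2.44 ± 0.55) were lower, and at -1.72 and -1.67 without control replicate 2. S100a4 was the 1 such marker listed for overexpression, at 1755 ± 119 normalized counts in overexpression libraries and 1072 ± 107 in their controls, a log2 fold of 0.71 that turned to -0.51 with median-of-ratios and -0.04 with TMM scaling. Knockdown control replicate 2 stood apart in the collagen markers of that list, with 735 normalized counts of Col1a1, against 170 and 185 in the other controls. Markers of smooth muscle (2 of 5 listed) summed to 109 to 158 in knockdown libraries and 224 to 946 in their controls. Control replicate 2 stood apart here too, with 722 normalized counts of Acta2, against 187 and 162 in the other controls. Without it the log2 fold of Acta2 went from -1.75 to -1.07. Markers of blood cells (2 of 5) summed to 140.3 to 172 in knockdown libraries and 384 to 432 in their controls. Endothelial markers (2 of 4) summed to 0 to 8.31 in knockdown libraries and 12.3 to 75.3 in their controls, and 0 granulosa cell markers were listed. The precursor of ribosomal RNA, Rn45s, made up 58.7 to 65.3% of listed counts in knockdown libraries and 51.5 to 53.6% in their controls, and the part of these features in the Zfp values was not tested.

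The first set of sequences shows what names the family. A short linker of threonine, glycine, glutamate, lysine and proline joins neighbouring Cys2His2 fingers, and its codons all fit ACNGGNGANAANCC, where N is any base. These letters were searched in frame in the coding sequence of the matching GENCODE transcript, found for 27 of the 28 genes. At least 1 linker was found in 18 of the 27 (66.7%), against 497 of 21901 mouse coding genes (2.27%), and 4 or more in 11 of the 27 (40.7%), against 1.31% of all coding genes and 50.8% of the 394 annotated genes of this name. Each stretch below runs from 1 linker to the next, that is 1 finger of 84 bases and the following linker, 5′ to 3′ on the coding strand, with both linkers in capitals. They come from 1 gene that was lower in overexpression (Zfp113), 4 that were lower in knockdown (Zfp612, Zfp951, Zfp9 and Zfp617) and 1 that was higher there (Zfp961).
Zfp113: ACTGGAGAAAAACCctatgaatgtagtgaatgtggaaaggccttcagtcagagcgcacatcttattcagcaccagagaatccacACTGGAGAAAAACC
Zfp612: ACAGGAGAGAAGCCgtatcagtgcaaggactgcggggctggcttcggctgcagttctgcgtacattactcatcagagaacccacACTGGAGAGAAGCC
Zfp951: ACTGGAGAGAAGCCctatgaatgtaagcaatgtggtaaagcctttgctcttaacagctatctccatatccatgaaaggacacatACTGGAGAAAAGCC
Zfp9: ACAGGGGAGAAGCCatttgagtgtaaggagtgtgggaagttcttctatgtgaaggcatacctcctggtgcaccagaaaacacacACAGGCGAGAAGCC
Zfp617: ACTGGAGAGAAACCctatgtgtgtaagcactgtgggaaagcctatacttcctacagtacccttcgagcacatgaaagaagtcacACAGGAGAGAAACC
Zfp961: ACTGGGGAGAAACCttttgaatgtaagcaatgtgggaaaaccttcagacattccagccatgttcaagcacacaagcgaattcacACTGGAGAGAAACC

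On GRCm38 these coding stretches lie at chr5:138145220-138145317 (minus strand), chr8:110089072-110089169 (plus strand), chr5:104815007-104815104 (minus strand), chr6:118464936-118465033 (minus strand), chr8:71932479-71932576 (plus strand) and chr8:71968473-71968570 (plus strand). Over the members, 56 of 73 gaps between consecutive linkers were exactly 84 bases. Across the 13 members with such a unit, 1 unit each, identity was 55.1 to 76.5% over 98 bases (median 65.3%, 78 pairs). The units were chosen by their linkers, which also count in the 98 bases, and they are not matched fingers. In these stretches the genes were not copies. How the authors counted reads that match several genes was not stated, so small differences between genes with such units are uncertain.

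The first comparison asked which Zfp genes differed when Usp7 was overexpressed. All 5 listed members were lower with overexpression, and in each the 3 overexpression libraries lay below the 3 controls. Of all 613 transcripts tested 34.7% were called lower and 65.3% higher (limma, adjusted p under 0.05), so that 613 of 613 were called. Of the 648 listed 99.8% had no overlap between the groups, 36.0% lower and 63.9% higher. The median log2 fold of the 5 members was -1.01, against 1.31 over all transcripts tested. With median-of-ratios scaling, which moved the median of all folds by -1.20 (log2), 47.4% of all calls were higher. With so few members the count is a description. In bulk RNA, fewer cells of a type and less RNA per cell cannot be told apart.

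Zfp469, whose human counterpart is mutated in brittle cornea syndrome, a disorder of collagen-rich tissue, fell most (chr8:122043123-122272650). It had 13.0, 5.46 and 10.9 normalized counts in overexpression replicates 1 to 3, against 62.4, 54.3 and 49.0 in control replicates 1 to 3. The highest overexpression library was thus far below the lowest control. The fall was 5.46-fold (log2 fold -2.45 ± 0.34 as SE over 3 libraries a group, limma, Benjamini-Hochberg adjusted p = 5.64e-05). The reads behind these values were few in overexpression libraries, 20, 5 and 8, against 62, 49 and 53 in controls.

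Zfp219, a transcriptional partner of Sox9 in mouse cartilage cells (chr14:52006075-52021140), had 24.7, 17.5 and 25.8 normalized counts in overexpression libraries, against 43.3, 83.1 and 56.4 in controls. Its controls varied widely, by 20.3 (SD) around 60.9, and overexpression libraries by 4.52 around 22.7. The groups stayed apart, with a log2 fold of -1.36 ± 0.30 SE (limma, adjusted p = 0.00117). Zfp113, with 8 linkers, had 107, 91.8 and 78.7 normalized counts in overexpression libraries, against 160.0, 228 and 176 in controls, and a log2 fold of -1.01 ± 0.20 SE (limma, adjusted p = 5.15e-04).

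The remaining 2 members, Zfp775 and Zfp940, changed less and varied less between libraries. Zfp775 had 109, 127 and 139.8 normalized counts in overexpression libraries, against 233, 204 and 217 in controls (log2 fold -0.80 ± 0.17 SE). Zfp940 had 146, 137 and 143 in overexpression libraries, against 213, 224 and 211 in controls (-0.60 ± 0.15 SE). Zfp940 is the member nearest to the fold at which the authors' selection stops, at -0.60 in the authors' deposited table. Both lost the call when library scaling was removed, with limma adjusted p = 0.0552 for Zfp775 and 0.144 for Zfp940. Per kilobase of transcript the controls ordered the genes as Zfp940 (78.2 ± 2.50 normalized counts per kb, SD), Zfp775 (53.4 ± 3.62), Zfp113 (29.1 ± 5.53) and Zfp219 (21.7 ± 7.24), and the last pair did not differ beyond their spread. Zfp469 had no matched transcript length.

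**Figure D1:**
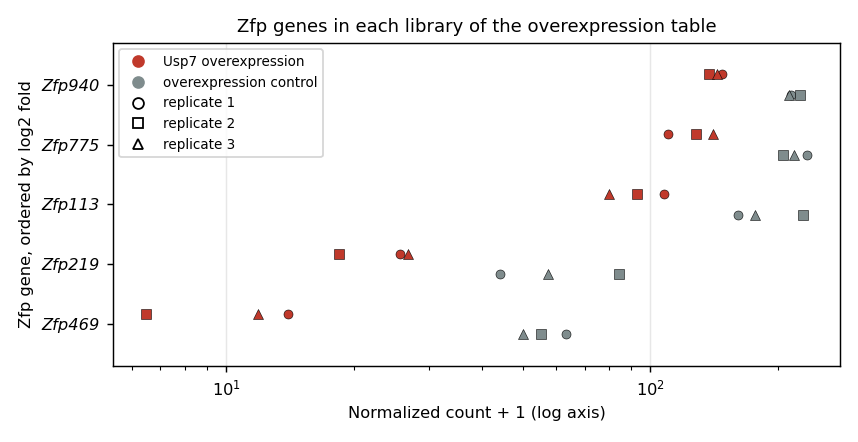
Normalized count + 1 (log axis) of the 5 Zfp genes in each of the 6 libraries of the overexpression table, with overexpression libraries in red above their controls in grey and a marker shape per replicate number. In every gene the 3 red points lie left of the 3 grey points, from Zfp469 (9.78 against 55.2 on average) to Zfp940 (142 against 216).

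The second comparison asked which Zfp genes differed when Usp7 was knocked down. Of 24 listed members 18 were lower and 6 higher with knockdown, and none had overlapping groups. Among all 3156 listed transcripts 98.4% had no overlap, 52.8% lower and 45.7% higher. After the filter on low values 21 members were tested, of which 15 were called lower and 6 higher (limma), beside 50.7% lower and 49.1% higher among 2902 transcripts tested, of which 2898 were called. The 3 members outside the filter are described last. The median log2 fold of the 21 was -0.91, against -0.61 over all transcripts tested. With a stricter filter of at least 50 in 3 libraries it was -0.75 over the 16 members left, 10 lower and 6 higher, against 0.64 over 2235 transcripts, of whose calls 58.2% were higher. Among the lower ones Zfp951, Zfp9, Zfp605 and Zfp617 passed this filter only through their controls, so these counts give no support for a direction. Direction in the knockdown table went with level: with a mean under 50 normalized counts 864 of 1029 listed transcripts were lower, from 50 to 200 it was 484 of 783, and at 200 or more 362 of 1344. The members under 50 comprised 9 lower and 0 higher, those from 50 to 200 comprised 5 lower and 3 higher, and those at 200 or more 4 lower and 3 higher.

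The 6 higher members all depended on how libraries were scaled. When libraries were scaled to column totals, which Rn45s dominates and which moved the median of all folds by -0.81 (log2), 0 of the 6 were called, and with no library scaling 1 was. Of all calls, 15.3% were then higher with column totals and 32.6% with no scaling, beside 49.2% with the authors' scaling. Both scalings move folds downwards and so are no check of the 15 lower members. Median-of-ratios scaling, which moves all folds by 0.30 upwards, kept all 15 calls. Of all transcripts tested 1396 were then called lower, beside 1472 with the authors' scaling. Without control replicate 2 the counts were again 6 higher and 15 lower, with 2883 of 2902 transcripts called. All 21 members kept their call and direction in edgeR and DESeq2 fits on recovered reads, which each called 2902 of 2902. Such kept calls follow from the authors' selection and give no support of their own.

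**Figure D2:**
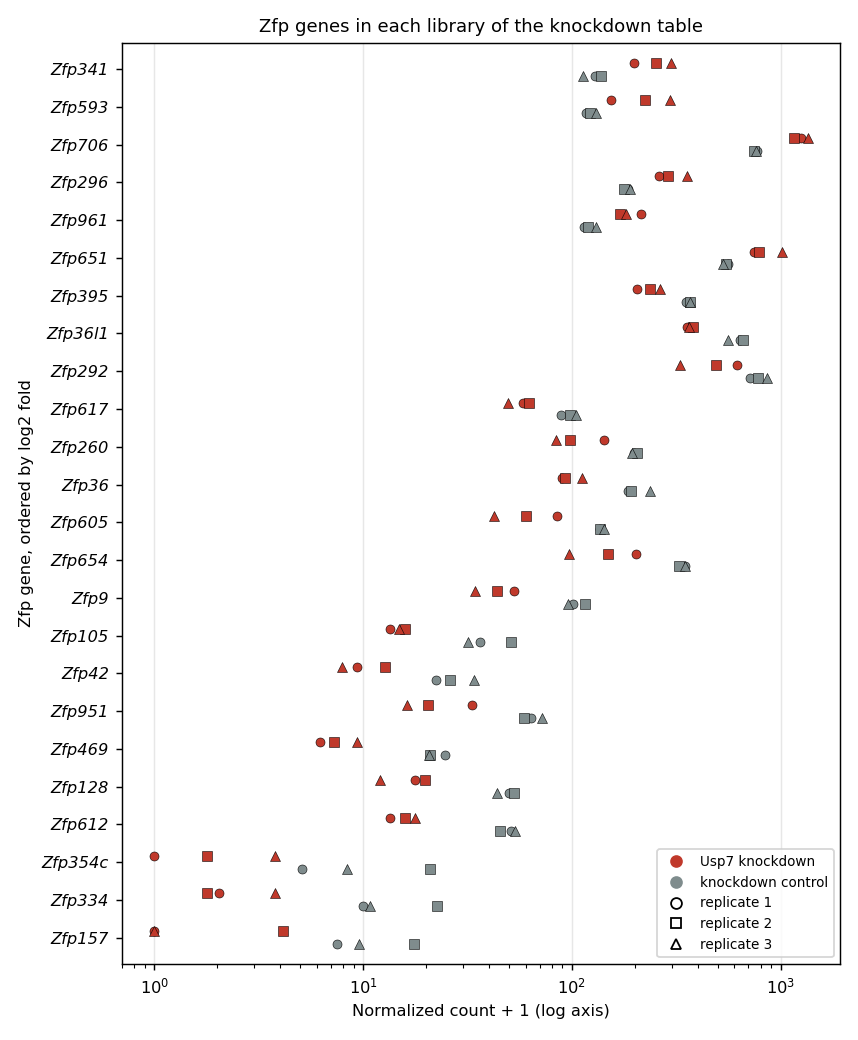
Normalized count + 1 (log axis) of the 24 Zfp genes in each of the 6 libraries of the knockdown table, with knockdown libraries in red above their controls in grey, a marker shape per replicate number and genes ordered by log2 fold. The 6 genes at the top have all red points right of the grey ones, and the 18 below have them left, with knockdown replicates more spread out than controls in Zfp292, Zfp654 and Zfp605.

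The RNA-binding members were Zfp36 and Zfp36l1, CCCH proteins that bind AU-rich elements in messenger RNAs and promote their decay. Both fell with knockdown. Zfp36 had 88.3, 91.2 and 111 normalized counts in knockdown replicates 1 to 3, against 184, 191 and 236 in control replicates 1 to 3, a 2.09-fold fall (log2 fold -1.07 ± 0.15 as SE, 3 libraries a group, limma, Benjamini-Hochberg adjusted p = 1.83e-04). Zfp36l1 had 354, 380 and 362 normalized counts in knockdown libraries, against 636, 655 and 556 in controls (log2 fold -0.75 ± 0.10 SE, limma adjusted p = 1.61e-04). The knockdown libraries agreed closely for Zfp36l1, within 13.3 (SD) of 365. No linker of the Cys2His2 kind was found in either coding sequence.

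Regulators of pluripotent and self-renewing cells moved in both directions. Zfp42 had 8.32, 11.7 and 6.93 normalized counts in knockdown libraries, against 21.2, 25.1 and 33.1 in controls, and fell by 1.47 on the log2 scale (± 0.30 SE, limma adjusted p = 0.00126). These values rest on few reads, 8, 15 and 5 in knockdown libraries and 26, 29 and 27 in controls. The controls carried Zfp42 past the low-value filter, which its knockdown libraries alone did not meet. Zfp296, which aids reprogramming of mouse cells to pluripotency, had 259, 288 and 356 normalized counts in knockdown libraries, against 185, 177 and 189 in controls (log2 fold 0.70 ± 0.14 SE, limma adjusted p = 9.67e-04). Zfp706, which in mouse embryonic stem cells represses the self-renewal gene Klf4, lies at chr15:36997027-37007402. It had 1248, 1157 and 1345 normalized counts in knockdown libraries, against 772, 742 and 762 in controls (0.72 ± 0.09 SE, limma adjusted p = 1.20e-04). Its knockdown libraries were all well above the controls, and in knockdown libraries it was the most abundant member, also per kilobase. Klf4 itself, a zinc finger gene of another name, fell to 39.9 ± 10.3 normalized counts in knockdown libraries, against 102 ± 13.2 in controls (SD, n = 3). Its log2 fold was -1.36 ± 0.21 SE (limma adjusted p = 3.10e-04). Of 6 tested Klf genes 5 were lower, and a link between Klf4 and Zfp706 was not tested. Scaling to column totals turned Zfp296 to -0.11 and Zfp706 to -0.09, neither past the threshold.

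The promoters of these 4 members are shown because the 2 RNA-binding genes moved together and the 2 pluripotency genes moved apart. Each is the 250 bases before the RefSeq start on GRCm38.p6, 5′ to 3′ on the gene's strand. Capitals mark letters of 10 common promoter motifs, a set chosen after the values were seen and searched on both strands. These were the CCAAT box, GC box, TATA box, E-box, octamer, Egr site and serum response element core, and the elements for cyclic AMP, AP-1 and C/EBP-ATF.
Zfp36: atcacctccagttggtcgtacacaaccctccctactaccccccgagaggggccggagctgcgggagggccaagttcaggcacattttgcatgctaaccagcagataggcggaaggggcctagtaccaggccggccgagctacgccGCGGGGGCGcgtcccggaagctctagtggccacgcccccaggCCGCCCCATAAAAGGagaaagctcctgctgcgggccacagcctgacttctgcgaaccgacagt
Zfp36l1: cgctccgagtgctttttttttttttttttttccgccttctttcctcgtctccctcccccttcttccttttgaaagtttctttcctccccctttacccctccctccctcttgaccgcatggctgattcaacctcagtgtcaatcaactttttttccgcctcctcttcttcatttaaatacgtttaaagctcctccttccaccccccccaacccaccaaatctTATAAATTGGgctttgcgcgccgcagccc
Zfp42: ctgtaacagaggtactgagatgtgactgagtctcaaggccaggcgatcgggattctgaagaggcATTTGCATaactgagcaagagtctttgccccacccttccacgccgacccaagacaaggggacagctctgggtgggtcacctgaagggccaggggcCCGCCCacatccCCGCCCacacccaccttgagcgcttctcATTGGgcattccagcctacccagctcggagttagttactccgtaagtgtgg
Zfp296: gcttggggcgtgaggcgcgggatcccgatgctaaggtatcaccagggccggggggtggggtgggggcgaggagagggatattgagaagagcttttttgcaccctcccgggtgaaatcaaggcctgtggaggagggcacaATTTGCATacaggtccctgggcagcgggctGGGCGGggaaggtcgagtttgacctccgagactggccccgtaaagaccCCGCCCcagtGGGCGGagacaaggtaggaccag

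These windows lie at chr7:28379229-28379478 (minus strand), chr12:80113014-80113263 (minus strand), chr8:43307010-43307259 (minus strand) and chr7:19577037-19577286 (plus strand). The Zfp36 window holds an Egr site from -105, a GC box from -63 and, sharing 1 base with it, a serum response element core from -58, counted from the start. Zfp36l1 holds a TATA box (TATAAA) from -29 that shares 1 base with a CCAAT box on the other strand. Zfp42 and Zfp296 both hold the octamer (ATGCAAAT, here on the reverse strand), from -186 in Zfp42 and from -111 in Zfp296, and these genes moved in opposite directions. They also hold 2 and 3 GC boxes (GGGCGG). Over the table's 32851 promoter windows of 300 bases, which run from 250 before to 50 after the start, the octamer was present in 1.74%, the Egr site (GCGGGGGCG) in 2.91%, the serum response element core in 1.63% and the TATA box in 13.6%. Among the 22 windows of 20 members the octamer and the Egr site were each in 2 and the serum response element core in 1. The pentamer CCAAT was in 13 of the 22 windows and in 37.4% of all, and the GC box in 9 and in 35.7%. The E-box CACGTG was in 2 of the 22 windows and in 7.15% of all. Elements for cyclic AMP (TGACGTCA), C/EBP-ATF (TGATGCAA) and AP-1, the last spelled TGACTCA, were in 0 of the 22 and in 1.79, 0.895 and 5.2% of all in that order. A match of letters is a description and shows no bound factor.

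Direction was also counted by the number of linkers found, which is not a count of fingers. The knockdown table held 10 members with 4 or more linkers, a limit set after the values were seen, and all 10 were lower. The 13 members with fewer comprised 7 lower and 6 higher, so every higher member had under 4. Among listed genes of other names, Zkscan14, Zkscan7 and Zscan2, also had 4 or more linkers, and all 13 such transcripts of the table, the 10 members included, were lower, against 53.1% of the 2889 with fewer. Level moved with linker number. Of the 10 members 6 had a mean under 50 normalized counts, 4 had 50 to 200 and 0 had more. Of the 13 with fewer linkers 7 had 200 or more. The part of level was not tested.

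**Figure D3:**
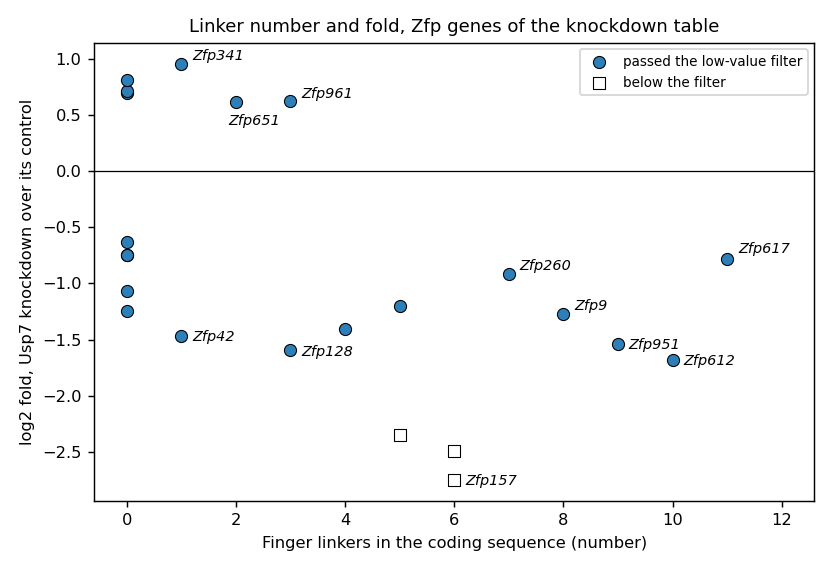
Log2 fold of knockdown over its control (y axis) against the number of linkers in the coding sequence (x axis) for 23 Zfp genes of the knockdown table, with open squares for 3 genes below the low-value filter, fitted without it. All points at 4 or more linkers lie under 0, and points at 0 to 3 linkers lie on both sides.

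Within the array genes the folds ranged from -1.68 to -0.78 among those that passed the filter. Zfp612, with 10 linkers and outside the rule for named genes, had 12.5, 14.8 and 16.6 normalized counts in knockdown libraries, against 49.8, 44.2 and 52.7 in controls, a 3.20-fold fall (log2 fold -1.68 ± 0.21 SE, limma adjusted p = 1.03e-04). It was the strongest fall among members past the filter. Zfp951 (-1.54 ± 0.27 SE) and Zfp105 (-1.40 ± 0.25 SE), named after their values were seen, fell by similar amounts from control means of 64.0 and 38.7 normalized counts. Zfp9, with 8 linkers, had 52.0, 42.9 and 33.3 normalized counts in knockdown libraries, against 100.5, 114 and 94.3 in controls (-1.27 ± 0.19 SE). Zfp605, with 5, had 84.2, 59.2 and 41.6 in knockdown libraries, against 136, 136 and 141 in controls (-1.20 ± 0.23 SE). The controls of Zfp605 differed by less than the knockdown libraries did among themselves, 2.93 (SD) in controls and 21.4 in knockdown. Zfp260, a partner of Gata4 in rat heart cells, had 141, 97.4 and 83.1 normalized counts in knockdown libraries, against 197, 203 and 194 in controls (-0.91 ± 0.19 SE).

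Zfp617 and Zfp961 are neighbours on chromosome 8, 16.4 kb apart with 0 protein-coding genes between them in RefSeq, and they moved in opposite directions. Zfp617, with 11 linkers (chr8:71922825-71934630), had 57.2, 61.6 and 48.5 normalized counts in knockdown libraries, against 87.4, 97.0 and 104 in controls (log2 fold -0.78 ± 0.15 SE, limma adjusted p = 0.00109). Zfp961, with 3 linkers (chr8:71951048-71970333), had 212, 169 and 180.1 in knockdown libraries, against 114, 119 and 129.8 in controls (0.62 ± 0.13 SE, limma adjusted p = 0.00151). The groups of either gene did not overlap. Their finger units above, linkers included, were identical at 72.4% of 98 bases. Under column totals Zfp961 turned to -0.18, not past the threshold. The other close pairs were not of 1 table (Zfp113 and Zfp157, 285.7 kb apart on chromosome 5, and Zfp940 and Zfp260, 241.1 kb apart on chromosome 7), and all 4 were lower where listed.

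Among the other higher members, Zfp341 rose most. Its human counterpart drives transcription of STAT3. It had 196, 251 and 297 normalized counts in knockdown libraries, against 128, 137 and 111 in controls, a 1.95-fold rise (log2 fold 0.96 ± 0.17 SE, limma adjusted p = 5.45e-04). Zfp593, whose yeast counterpart takes part in export of the large ribosomal subunit, had 153, 222 and 295 in knockdown libraries, against 116, 121 and 129.8 in controls (0.81 ± 0.22 SE). Knockdown replicate 1 was closest to the controls for both genes, and the log2 fold of Zfp593 lay between 0.59 and 1.06 with 1 library left out. Zfp651 had 745, 785 and 1009 in knockdown libraries, against 560.4, 544 and 529 in controls (0.62 ± 0.13 SE). With column totals Zfp341 was at 0.15, Zfp593 at 0.01 and Zfp651 at -0.19, none past the threshold.

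The remaining members with under 4 linkers fell. Zfp654 had 203, 148 and 95.6 normalized counts in knockdown libraries, against 346, 324 and 348 in controls (log2 fold -1.25 ± 0.24 SE, limma adjusted p = 8.46e-04). Zfp292, first described in rat as a factor on the growth hormone promoter, had 613, 489 and 329.8 in knockdown libraries, against 709, 777 and 855 in controls (-0.75 ± 0.20 SE). In both genes the knockdown libraries were widely spread and replicate 3 lay farthest from the controls. Zfp395, whose human counterpart binds the promoter of the Huntington disease gene, had 205, 235 and 263 in knockdown libraries, against 352, 368 and 365 in controls (-0.63 ± 0.12 SE), and in this gene replicate 1 lay farthest. Zfp128, named after its values were seen, had 16.6, 18.7 and 11.1 in knockdown libraries, against 49.0, 52.0 and 42.9 in controls (-1.60 ± 0.24 SE). Over the 21 members past the filter, knockdown replicate 3 lay farthest from the control mean in 14, replicate 1 in 7 and replicate 2 in 0, against 1450, 887 and 565 of all 2902 transcripts tested.

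**Figure D4:**
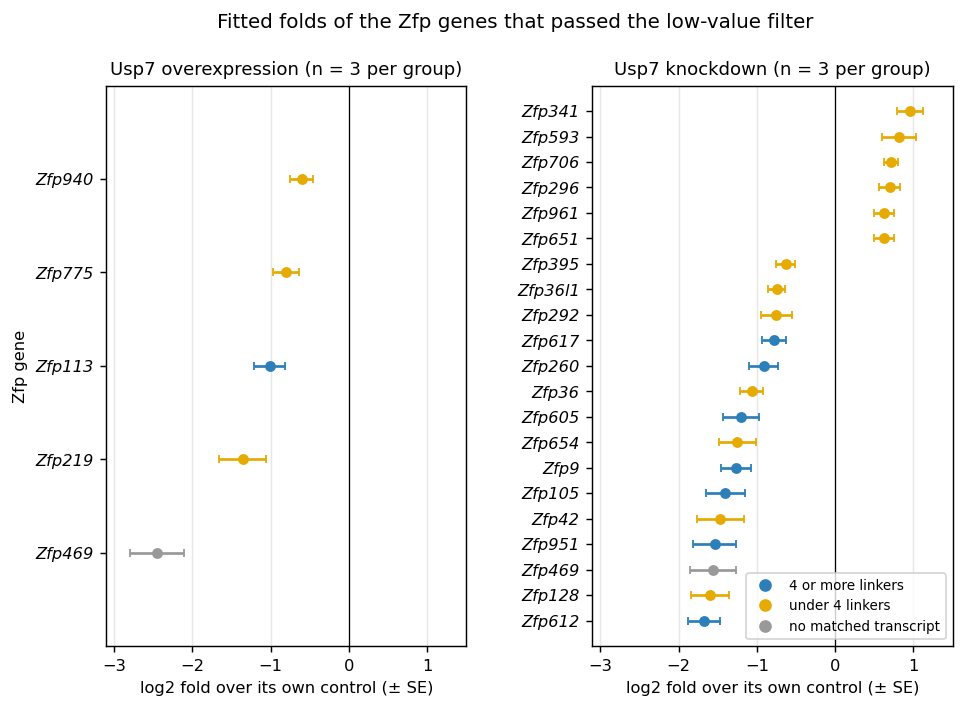
Log2 fold over the matching control (x axis, ± SE, n = 3 per group, limma) of the Zfp genes past the low-value filter, overexpression left and knockdown right, coloured by the number of finger linkers. Overexpression folds run from -2.45 to -0.60, and knockdown folds from -1.68 to 0.96 with every gene of 4 or more linkers under 0.

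Zfp469 was the 1 member measured in both tables, and it was lower in both. In the knockdown table it had 5.20, 6.23 and 8.31 normalized counts in knockdown libraries, against 23.7, 19.9 and 19.6 in controls (log2 fold -1.56 ± 0.29 SE, limma adjusted p = 8.48e-04), beside -2.45 ± 0.34 in overexpression. Its groups did not overlap in either table. In the knockdown table the reads were few, 5, 8 and 6 in knockdown libraries and 29, 23 and 16 in controls. In both tables its controls carried it past the low-value filter, which the other libraries alone did not meet. The 2 tables were normalized separately and the difference between the folds was not tested. Control replicate 2, the library high in collagen markers and Acta2, had 19.9 normalized counts of Zfp469, against 23.7 and 19.6 in the other controls. The part of other cell types in the fall of Zfp469 was not tested.

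The 3 members outside the filter, Zfp354c, Zfp334 and Zfp157, rest on very few reads. All had 4 or more linkers and were named after their values were seen. In knockdown replicates 1 to 3 the reads numbered 0, 1 and 2 for Zfp354c, against 5, 23 and 6 in control replicates 1 to 3. For Zfp334 they numbered 1, 1 and 2 in knockdown libraries, against 11, 25 and 8 in controls. For Zfp157 they numbered 0, 4 and 0 in knockdown libraries, against 8, 19 and 7 in controls. In all 3 genes control replicate 2, the library that stood apart in collagen markers and Acta2, was the highest control. Fitted with no filter the log2 folds were -2.35 ± 0.77 SE for Zfp354c, -2.49 ± 0.56 for Zfp334 and -2.75 ± 0.76 for Zfp157. Without control replicate 2 they were -1.79 ± 0.63, -2.12 ± 0.46 and -2.41 ± 0.69 in the same order (limma adjusted p = 0.0238, 0.00293 and 0.00991). In that fit 3063 of 3156 transcripts passed the threshold, so that these 3 passed it too gives no support of its own.

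Levels between genes were compared per kilobase of transcript. In knockdown libraries Zfp706 led with 283 ± 21.3 normalized counts per kb (SD, n = 3), followed by Zfp296 (197 ± 32.7), Zfp651 (133 ± 22.4), Zfp36l1 (122 ± 4.46) and Zfp593 (112 ± 35.7), and the last 3 did not differ beyond their spread. In their controls Zfp36l1 led with 206 ± 17.6, followed by Zfp706 (172 ± 3.44) and Zfp296 (119.8 ± 3.98), and Zfp651 (85.7 ± 2.47) and Zfp395 (85.5 ± 2.0) did not differ beyond their spread. At the low end of the controls Zfp157 (1.98 ± 0.99), Zfp354c (1.96 ± 1.57) and Zfp334 (1.64 ± 0.86) could not be ordered.

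Genes that work with zinc finger proteins were listed in part. Of 33 genes of the KRAB co-repressor and heterochromatin list, 3 were in the knockdown table and 0 in the overexpression table, Trim28 not among them. Sumo2, a small modifier that Trim28 attaches to itself and other proteins, was higher with knockdown (log2 fold 1.10 ± 0.23 SE), as were Atf7ip (0.71 ± 0.10), a partner of the methyltransferase Setdb1, and the deacetylase Hdac2 (0.70 ± 0.16), but under column totals none passed and Atf7ip (-0.10) and Hdac2 (-0.11) turned negative. Of 30 imprinted genes, which certain KRAB zinc finger proteins protect in embryos, 5 were tested for knockdown and all 5 were called lower, beside 50.7% of all transcripts tested, led by Kcnq1ot1 (-1.73 ± 0.16), Nespas (-1.64 ± 0.31), Igf2r (-1.51 ± 0.41) and Peg3 (-1.51 ± 0.30), itself a zinc finger gene. The fifth, Mcts2, lost its call with median-of-ratios scaling (log2 fold -0.39, limma adjusted p = 0.0536). Nespas and Peg3 were carried past the low-value filter by their controls, as their knockdown libraries alone did not meet it. Igf2r was highest in control replicate 2, with 21.8, 11.7 and 22.2 normalized counts in knockdown libraries, against 35.1, 100.4 and 41.6 in controls, and without that control its log2 fold was -1.06. For overexpression 3 imprinted transcripts were tested and all 3 were called lower, beside 34.7% of all transcripts tested, namely Kcnq1ot1 (-2.30 ± 0.29) and 2 transcripts of Meg3 (-4.31 ± 0.60 and -3.02 ± 0.66). Both Meg3 transcripts were carried past the low-value filter by their controls, as their overexpression libraries alone did not meet it. Kcnq1ot1 and Nespas are antisense RNAs whose reads cannot be told from those of their partners if strand was not kept.

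Zinc finger genes of other names were mostly lower in knockdown too. All 5 tested genes of the SCAN families fell, among them Zkscan7 (log2 fold -1.84 ± 0.23 SE) and Zkscan14 (-1.38 ± 0.14), as did all 4 of the Zbtb family, led by Zbtb10 (-1.71 ± 0.19), though Zbtb8a (limma adjusted p = 0.0566) and Zbtb11 (0.0598) lost the call with median-of-ratios scaling. Of 6 Klf genes 5 fell, among them Klf4 and Klf6 (-1.11 ± 0.11), and Klf16 rose (1.15 ± 0.12). Zc3h6 fell (-0.74 ± 0.16) and Zc3h7b rose (0.65 ± 0.12), though Zc3h7b was at -0.16 under column totals. The enzymes Zdhhc8 (1.04 ± 0.14) and Zdhhc23 (0.95 ± 0.21), which attach palmitate to proteins, rose, and neither passed under column totals. Together 15 of 19 tested genes of these families were lower and 4 higher, beside the background of 50.7% lower given above. Zkscan7 and Zscan18, counted among the lower, passed the low-value filter only through their controls. Direction in the knockdown table went with level, and the part of level in this count was not tested. Control means ran from 26.4 (Zscan18) to 1472 (Klf6) normalized counts in the lower genes. In the higher genes they ran from 48.7 (Zdhhc23) to 2275 (Zc3h7b). In overexpression 2 were tested, Zbtb8b lower (-1.86 ± 0.45) and Zbtb32 higher (1.12 ± 0.24, and -0.08 with median-of-ratios scaling). Zbtb8b passed the low-value filter only through its controls.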

How the data were processed

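RNA was profiled from 12 libraries in 4 groups of 3, grouped by sample title. Per the submitters' processing notes, Bowtie 0.12.2 and the builds mm10 and GRCm38 were used, and the counting tool and strandedness were not stated. The deposited library columns hold a signal that is a normalized count, the authors' reads over a size factor for each library. Beside them stand the authors' deposited log2 fold changes, their errors, a test score, and raw and adjusted p-values, all for selected transcripts.

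Whole reads were recovered for all 12 columns (100% of values, among those under 2000 reads, within 0.001 of a read). The planned log-scale test was kept: limma 3.58.1 (trend option, R 4.3.3) was run on log2(normalized count + 1), each construct against its own control, with Benjamini-Hochberg adjustment over the table. Transcripts needed 10 or more in 3 or more libraries and a summed value of 15 or more. Folds on this scale understate the change of low genes. edgeR 4.0.16 and DESeq2 1.42.0 were alternatives on recovered reads. The fit was tested on simulated data. Full library depth is unknown, since transcripts outside the tables are not seen.

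Members matched RefSeq (GRCm38.p6) for 28 of 28 genes, promoters for 20 and GENCODE M21 lengths for 27. Protein features were not run, since no protein table was used here. Members, lists and limits were chosen with earlier results of these data known. Genes were named by a rule: every overexpression member, members of both tables, the 8 highest and 8 lowest knockdown folds with a mean of at least 50, the 5 most abundant and a list of known regulators. Other scalings, filters, pseudocounts, left-out libraries and a replicate block were tried. Replicate numbers did not pair the libraries.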

Additional observations from a re-analysis of the deposited data

How the results depend on the processing

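The counts of 5 lower overexpression members, 6 higher and 15 lower knockdown members kept their values in several settings. These were pseudocounts of 0.5 and 5, TMM and median-of-ratios scaling, edgeR, DESeq2 and each library left out. For knockdown edgeR and DESeq2 each called 2902 of 2902 transcripts, and fits with a library left out 2879 to 2897. For overexpression edgeR, DESeq2 and each fit with a library left out called 613 of 613. Counts kept in such fits follow from the authors' selection and give no support of their own. TMM and median-of-ratios scaling moved overexpression folds downwards and so are no check of the 5 lower members. In knockdown, median of ratios moved folds upwards and is no check of the 6 higher members. TMM moved knockdown folds by -0.065 (log2) and is no check of the 15 lower ones. A stricter filter (at least 50 in 3 libraries) left 3 overexpression members, all lower (median -0.80), and 379 of 613 transcripts, and no library scaling left 3 called. With no filter, 18 knockdown members were lower. Column totals gave 0 higher members and 1756 calls in place of 2898, 15.3% of them higher (49.2% with the authors' scaling), and turned Zfp296 (-0.11), Zfp961 (-0.18), Zfp651 (-0.19) and Zfp706 (-0.093). With no library scaling 1 higher member (Zfp341) and 32.6% higher calls remained. The cause of these shifts was not tested. The median log2 fold of overexpression members was -2.22 with median-of-ratios and -1.76 with TMM scaling, which moved the median of all folds by -1.20 and -0.74 and, with median of ratios, gave 47.4% higher calls (65.3% with the authors' scaling). It ranged from -1.12 to -0.86 with a library left out. In knockdown the members' median was -0.61 with median of ratios (all folds moved by 0.30), -1.72 with column totals, and -1.0 to -0.75 with a library left out. The replicate block changed no call (5 lower members in overexpression, 6 higher and 15 lower in knockdown). Same-numbered libraries correlated at -0.11 to 0.05 in their deviations from group means, so the numbers were not taken as pairs. Leaving out knockdown control replicate 2 with no filter, chosen after seeing the data, gave 18 lower and 6 higher members, with 3063 of 3156 transcripts called. Depth limits the 3 members with at most 4 reads in every knockdown library.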
